A study of Mus musculus with 2 samples.

Results

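CC chemokines are small secreted proteins, named for a pair of neighbouring cysteines, that draw leukocytes into tissue through G protein-coupled receptors of the CCR family. In the gut, monocytes enter along gradients of ligands of CCR2, and resident macrophages, arriving monocytes, neutrophils and lymphocytes each secrete ligands of their own. The 10 genes described here, Ccl2, Ccl3, Ccl4, Ccl5, Ccl6, Ccl7, Ccl8, Ccl9, Ccl12 and Ccl24, were chosen by symbol from the 31053 genes of the matrices, and all 10 had UMIs in both libraries. Values are counts of UMIs, the random tags by which PCR copies of 1 cDNA are counted once.

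The study asked what loss of CerS2, a ceramide synthase that makes very long chain ceramides, does to colonic macrophages that cannot respond to IL-10. Bone marrow of IL-10R KO donors (KO) or of IL-10R/CerS2 DKO donors (DKO), both CD45.2, was engrafted into CD45.1 recipients, and colon cells freed with collagenase D were sorted for CD11b, CD11c and CD64. Both groups therefore lacked the IL-10 receptor, and no library with an intact receptor was analysed here. Each genotype had 1 library, so that genotype, mouse, sort and library cannot be told apart, no test was run, and every interval given is a 95% interval for counting error only. Recipient cells that outlive irradiation keep both genes, and no sort for CD45.2 is stated for these libraries.

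The KO library held 2584 barcodes and 12549471 UMIs and the DKO library 742 barcodes and 3414944 UMIs, with 1 barcode sequence in common. After filtering, 2443 KO and 730 DKO cells remained, with a median of 4715 and 3722 UMIs. Cers2 had 552 UMIs in kept KO cells and 2 in kept DKO cells. Il10rb, the receptor chain that the study deleted, had 74 UMIs in KO and 14 in DKO, at 5.96 and 4.12 CPM (UMIs of the gene for every 1000000 UMIs of the cells named), and since 3′ tags can lie outside a deleted part they do not check that deletion. The label of a colon macrophage held for the larger part of the KO library. Monocyte/macrophage-like cells were 62.1% of KO cells (1516 cells) and 43.7% of DKO cells (319). All 15 of their markers had a UMI in the class in both libraries, but so they had in dendritic cell-like KO cells. Summed, the markers were at 15487 CPM in KO and 19121 CPM in DKO. Neutrophil-like cells were next among the named classes, at 6554 and 8639 CPM. The remaining classes were neutrophil-like (160 KO and 48 DKO cells), dendritic cell-like (106 and 52), cytotoxic/innate lymphocyte-like (142 and 67), T cell-like (148 and 46), B cell-like (228 and 166) and epithelial cell-like (35 and 8), besides 1 cluster without a name. The cytotoxic/innate lymphocyte-like cluster also carried 10 of 12 T cell markers.

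On the mouse genome GRCm38 (mm10; GENCODE M21), 9 of the 10 genes lay on chromosome 11 within 1629 kb, between bases 82035571 and 83664683, and Ccl24 lay on chromosome 5 (135569937 to 135573049, minus strand). All 10 were protein coding. On chromosome 11 they fell into 2 groups. The first held Ccl2 (82035571 to 82037453), Ccl7 (82045712 to 82047525), Ccl12 (82101845 to 82103400) and Ccl8 (82115185 to 82116799), all on the plus strand, which encode ligands of CCR2 and related receptors. The second held Ccl5 (83525778 to 83530518), Ccl9 (83572919 to 83578636), Ccl6 (83587882 to 83593087) and Ccl3 (83647844 to 83649355) on the minus strand and Ccl4 (83662584 to 83664683) on the plus strand. Gm17268 overlapped Ccl2 and E230016K23Rik overlapped Ccl6 on the opposite strand, and no gene overlapped a member on its own strand. The family arose by duplication, so reads that match several members could be lost, and levels are therefore compared across cells for 1 gene at a time. Ccl2 is ENSMUSG00000035385, Ccl3 ENSMUSG00000000982, Ccl4 ENSMUSG00000018930, Ccl5 ENSMUSG00000035042, Ccl6 ENSMUSG00000018927, Ccl7 ENSMUSG00000035373, Ccl8 ENSMUSG00000009185, Ccl9 ENSMUSG00000019122, Ccl12 ENSMUSG00000035352 and Ccl24 ENSMUSG00000004814.

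Promoter sequence from RefSeq (GRCm38.p6) matched 5 of the 10 genes by symbol, namely Ccl3, Ccl6, Ccl8, Ccl9 and Ccl12. The 250 bases before the start of Ccl8, Ccl12 and Ccl9 are shown because Ccl8 and Ccl12 are neighbours whose KO levels were highest in the same state, the C1q-high macrophages, while Ccl9 was the only one of the 5 with a match to each of the 3 motifs searched. Capitals mark TATAAA (searched on the plus strand of the gene), TGANTCA of AP-1 and the NF-kB motif (both strands).
Ccl8, chr11:82114935-82115184, plus strand: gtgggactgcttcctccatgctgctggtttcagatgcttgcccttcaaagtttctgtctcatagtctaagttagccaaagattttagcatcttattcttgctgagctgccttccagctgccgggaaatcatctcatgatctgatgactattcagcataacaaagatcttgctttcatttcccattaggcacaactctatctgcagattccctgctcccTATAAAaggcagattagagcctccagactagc
Ccl12, chr11:82101595-82101844, plus strand: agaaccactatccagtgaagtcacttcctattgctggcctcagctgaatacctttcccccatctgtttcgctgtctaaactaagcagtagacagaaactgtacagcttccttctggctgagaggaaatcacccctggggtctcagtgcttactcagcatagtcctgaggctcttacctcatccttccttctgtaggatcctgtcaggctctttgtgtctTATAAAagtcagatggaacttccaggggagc
Ccl9, chr11:83578637-83578886, minus strand: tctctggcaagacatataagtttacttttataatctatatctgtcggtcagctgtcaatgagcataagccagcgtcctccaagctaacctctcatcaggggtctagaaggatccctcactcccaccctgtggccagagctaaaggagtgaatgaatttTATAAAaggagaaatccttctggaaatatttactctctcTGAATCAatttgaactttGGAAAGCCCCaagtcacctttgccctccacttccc
TATAAA began 32 bases before the start in Ccl8, 31 in Ccl12 and 92 in Ccl9, and 7.59% of all 32851 promoters of that length held it. In Ccl9 the AP-1 match began 53 and the NF-kB match 35 bases before the start, with a match in 6.75% and 7.25% of all promoters. The motifs did not overlap. None of the 3 matched in the windows of Ccl3 and Ccl6, which says only that these letters are not there.

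The class with the highest level differed between the genes. In each library Ccl2, Ccl7, Ccl8, Ccl9, Ccl12 and Ccl24 were highest in monocyte/macrophage-like cells. Ccl3, Ccl4 and Ccl6 were highest in neutrophil-like cells and Ccl5 in cytotoxic/innate lymphocyte-like cells, also in each library. However, the intervals of the leading class and of another overlapped in DKO for Ccl3, Ccl9, Ccl12 and Ccl24. The DKO lead of Ccl3 rested on 1 cell that held 10 of the 13 Ccl3 UMIs of neutrophil-like cells. The same cell held 103 of the 161 DKO Ccl4 UMIs of neutrophil-like cells. That cell had 1 of 10 neutrophil markers and 4 of 8 basophil/mast cell markers. B cell-like cells, assumed without a test to lack these genes, were used as a guide to the level of free RNA. There the share of cells with a UMI was at most 3.51% in KO (Ccl5, 8 of 228 cells, median 2428 UMIs). In DKO it was at most 1.2% (Ccl5, 2 of 166 cells, median 2515.5 UMIs). Monocyte/macrophage-like cells were deeper (median 5503.5 UMIs in KO and 5436 in DKO), so free RNA could be found in a larger share of them.

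**Figure D1:**
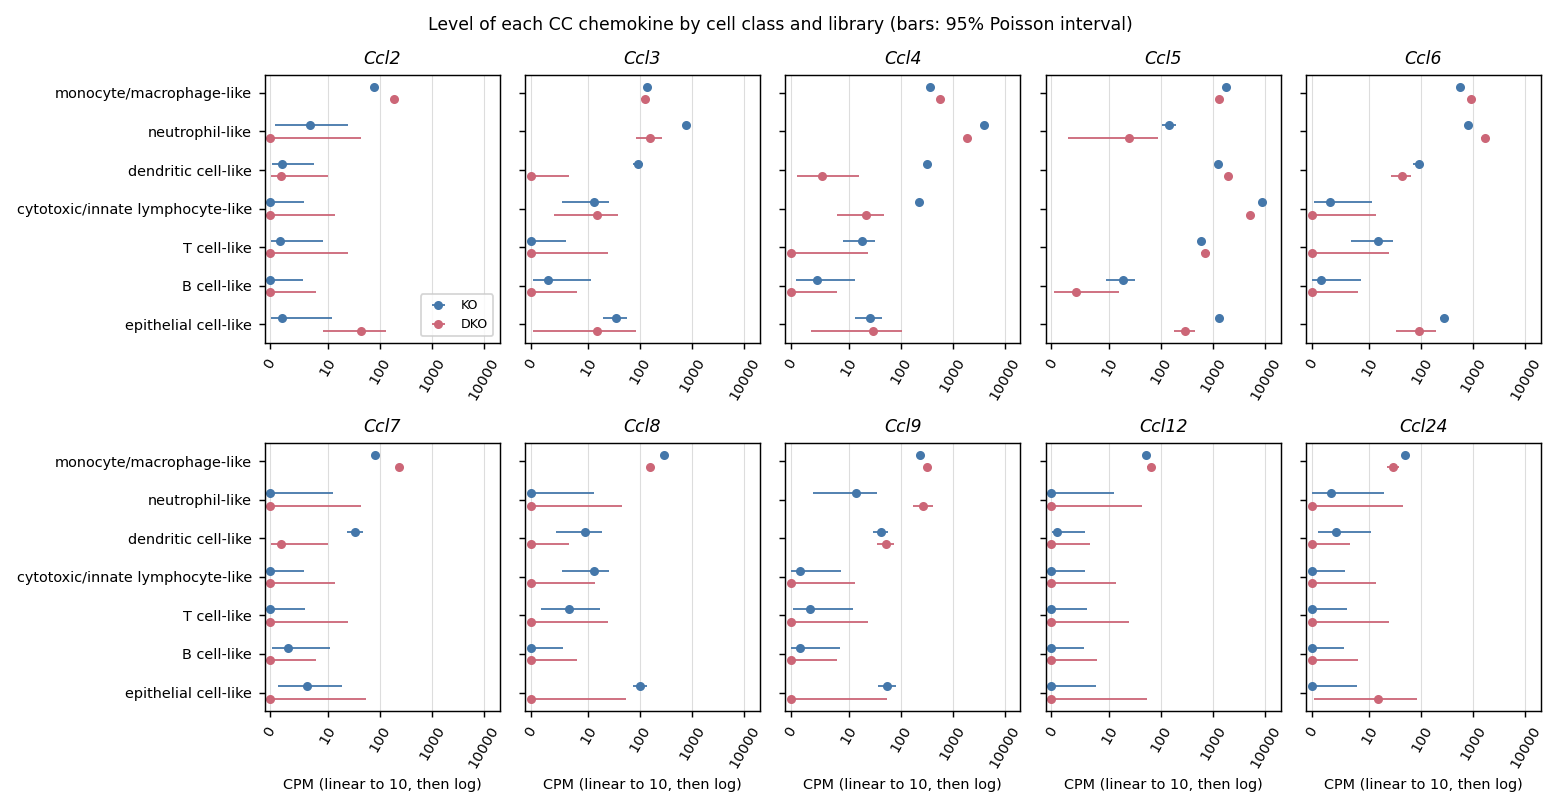
Level of each CC chemokine in CPM (x axis, linear up to 10 and logarithmic above) by cell class (y axis), with KO in blue and DKO in red and bars for the 95% Poisson interval. In both libraries Ccl2 and Ccl7 are highest in monocyte/macrophage-like cells with intervals apart from every other class, Ccl4 reaches 4052 CPM in KO neutrophil-like cells, and Ccl5 reaches 8752 CPM in KO cytotoxic/innate lymphocyte-like cells.

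The sort took only part of the colon's cells, and no cluster was named stromal or endothelial. Shares of UMIs therefore describe the sorted cells only. Among them, Ccl2, Ccl7 and Ccl12, ligands that recruit CCR2-bearing monocytes, came almost only from monocyte/macrophage-like cells. These cells held 98.4% of the kept UMIs of Ccl2 in KO and 97.9% in DKO, 94.6% and 99.8% of those of Ccl7, and 99.8% and 100% of those of Ccl12. Ccl2 was found in 11.7% of KO monocyte/macrophage-like cells (178 cells, 664 UMIs) and 23.5% of DKO ones (75 cells, 324 UMIs), and with every cell thinned to 1500 UMIs in 6.13% and 13%. Ccl7 was found in 7.19% of the KO cells and 14.4% of the DKO cells, or 4.70% and 11.3% when thinned. Ccl12 was found in 5.54% and 9.09%, but when thinned in 3.27% and 3.33%.

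Ccl8, a ligand of several CC receptors, marks tissue macrophages, and Ccl24 is an eosinophil attractant that binds CCR3. Among the sorted cells both were also found mainly in monocyte/macrophage-like cells, with 96.8% and 98.6% of their KO UMIs in that class. Ccl8 had 2486 UMIs in 130 KO cells and 276 in 23 DKO cells. Ccl24 was made by few cells: 47 KO cells held 413 UMIs and 14 DKO cells held 51, and 1 DKO cell held 35.3% of the latter.

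Ccl3 and Ccl4, the inflammatory chemokines also known as MIP-1α and MIP-1β, were densest in neutrophil-like cells. Ccl4 was found in 48.8% of KO neutrophil-like cells (78 of 160, interval 40.8% to 56.8%) at 4052 CPM, against 374 CPM in KO monocyte/macrophage-like cells. Ccl3 was at 750 CPM in KO neutrophil-like cells and at 133 CPM in KO monocyte/macrophage-like cells. Since macrophages were more numerous, they still held 77.4% of all KO Ccl3 UMIs and 65.7% of all KO Ccl4 UMIs. In DKO, 10 of 13 Ccl3 UMIs, 103 of 161 Ccl4 UMIs and all 23 Ccl9 UMIs of neutrophil-like cells lay in 1 cell. That cell had 1 of 10 neutrophil markers and 4 of 8 basophil/mast cell markers, and its leading genes included Gzmb, Hdc and Prss34.

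Ccl6 and Ccl9, ligands of CCR1 found in rodents, were spread over many macrophages and monocytes. Ccl6 was the member found in the largest share of monocyte/macrophage-like cells of both libraries, 56.2% in KO and 64.9% in DKO, and Ccl9 was found in 45.3% and 56.1%. Outside it the genes parted. Ccl6 was at 777 CPM in KO and 1695 CPM in DKO neutrophil-like cells, whereas Ccl9 had 4 UMIs in 160 KO neutrophil-like cells.

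Ccl5, or RANTES, a ligand that cytotoxic lymphocytes store and secrete, was found in 89.4% of KO and 89.6% of DKO cytotoxic/innate lymphocyte-like cells, at 8752 CPM (interval 8524 to 8985) and 5206 CPM (4940 to 5483). In monocyte/macrophage-like cells its KO level was 1759 CPM (1731 to 1787) and its DKO level 1319 CPM (1266 to 1373), and in dendritic cell-like cells it was at 1262 and 1940 CPM. One monocyte/macrophage-like DKO cell held 970 of the 2347 Ccl5 UMIs of its class, and 1 dendritic cell-like KO cell held 694 of 1204. Both cells carried Il12b among their most abundant genes.

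Monocyte/macrophage-like cells, clustered again without any Ccl or Cxcl gene and without Cers2, gave 7 states. These were a Ly6c2 Vcan classical monocyte-like state (410 KO and 85 DKO cells), a Cd300e Ace nonclassical monocyte-like state (43 and 22), a Mrc1 Retnla macrophage-like state (171 and 94), an Arg1 Nos2 macrophage-like state (187 and 1), a C1q-high macrophage-like state (35 and 4) and 2 states without a name, led by Dnase1l3, Acp5 and Ccr7 (506 and 68) and by the immediate early genes Atf3, Egr1 and Fos beside Hes1 (164 and 45). The Arg1 Nos2 state came almost wholly from the KO library, and the Mrc1 Retnla state was 11.3% of KO and 29.5% of DKO cells of the class. The Arg1 Nos2 and C1q-high states had under 20 DKO cells and were not compared.

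**Figure D2:**
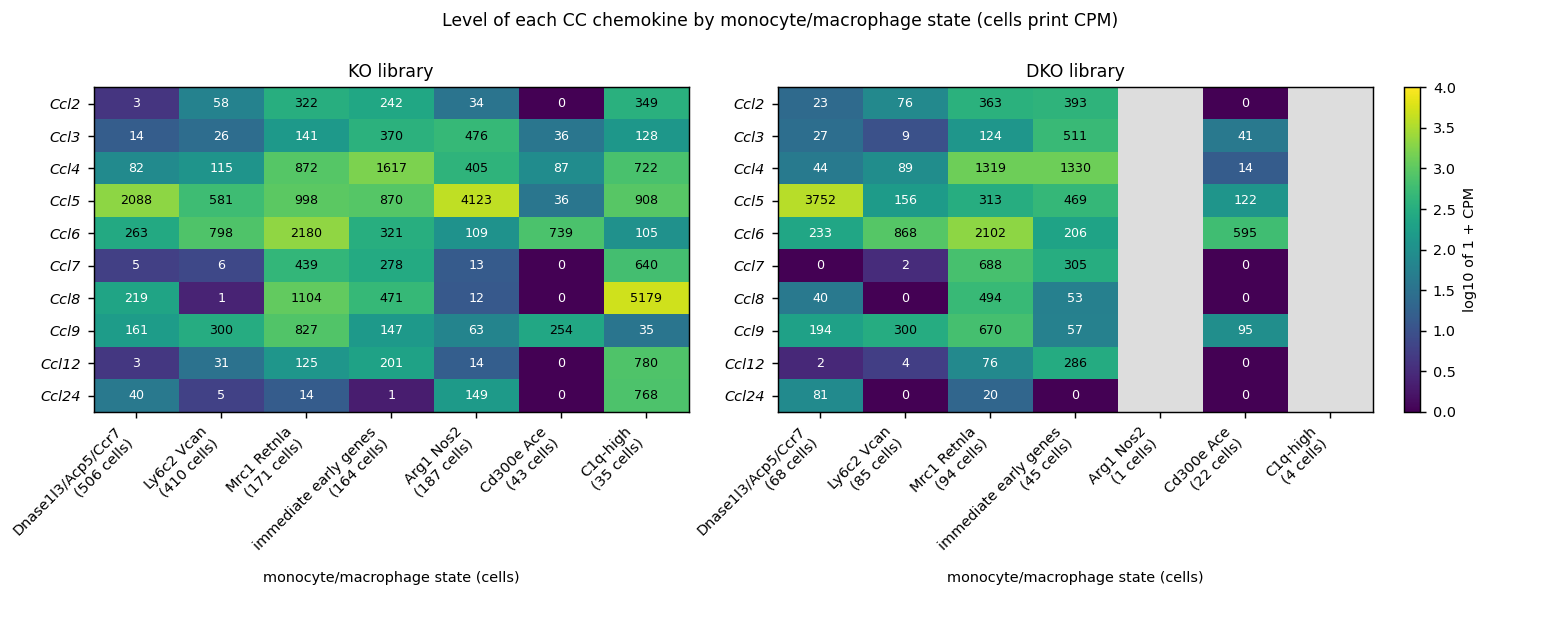
Level of each CC chemokine (rows; numbers in the cells are CPM, colour is log10 of 1 + CPM) by monocyte/macrophage state (columns, with their number of cells) in KO (left) and DKO (right), with states of under 20 cells left grey. Ccl2 and Ccl7 are high in the Mrc1 Retnla and immediate early gene columns of both libraries, Ccl8 reaches 5179 CPM in the KO C1q-high column, and Ccl5 is highest in the Arg1 Nos2 column of KO and the Dnase1l3 column of DKO.

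Many Mrc1 Retnla macrophages expressed several members at once. Mrc1, the mannose receptor, and Retnla, a resistin-like protein, mark alternatively activated and tissue-resident macrophages. After thinning to 1500 UMIs, 32.4% of KO cells (48 of 148) and 20.7% of DKO cells (18 of 87) of this state had 4 or more of the 10 members. The share was 25.8% in the KO C1q-high state (8 of 31 cells), 12.2% and 11.4% in the KO and DKO immediate early gene state, 0.599% and 4.41% in the Dnase1l3 state, 2.0% and 1.27% in the Ly6c2 Vcan state and 0% in B cell-like cells. The KO level of Ccl6 in the Mrc1 Retnla state was 2180 CPM (2074 to 2289) and its DKO level 2102 CPM (1972 to 2239), and Ccl9 was at 827 and 670 CPM. Ccl7 was at 439 and 688 CPM and Ccl2 at 322 and 363 CPM. The state held 77.6% of the Ccl7 UMIs and 61.3% of the Ccl6 UMIs of all DKO monocyte/macrophage-like cells, against 47.3% and 34.1% in KO.

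The immediate early gene state held much of Ccl3, Ccl4, Ccl2 and Ccl12. Ccl4 was at 1617 CPM in KO cells (interval 1536 to 1701) and 1330 CPM in DKO cells (1194 to 1477), Ccl3 at 370 and 511 CPM, Ccl2 at 242 and 393 CPM and Ccl12 at 201 and 286 CPM. The summed level of 10 immediate early genes (Fos, Fosb, Jun, Junb, Egr1, Atf3, Ier2, Hspa1a, Nr4a1 and Zfp36), which enzymatic dissociation is known to induce, was 11840 CPM in this state in KO and 10499 CPM in DKO, and 7172 and 6998 CPM in the Mrc1 Retnla state. In the remaining states of 20 or more cells it lay between 2237 CPM, in the DKO Dnase1l3 state, and 3387 CPM, in the KO C1q-high state. KO neutrophil-like cells had 7824 CPM and DKO ones 3911 CPM. Atf3, Egr1, Fos, Nr4a1 and Hspa1a were also among the leading genes of the immediate early gene state. The high sum in that state therefore followed in part from how it was formed. The part of dissociation in the levels of Ccl2, Ccl3, Ccl4 and Ccl12 was not tested.

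The KO Arg1 Nos2 macrophages, named for the enzymes that compete for arginine, had the highest Ccl5 level of any state, 4123 CPM (4011 to 4237), with a Ccl5 UMI in 74.9% of cells. They also held 51.1% of the Ccl3 UMIs of their class (476 CPM) and 44.8% of its Ccl24 UMIs (149 CPM), 56.2% of the latter in 1 cell. The Dnase1l3 cells were the other large Ccl5 source, at 2088 and 3752 CPM in the KO and DKO libraries, and 49.7% of the DKO UMIs in 1 cell. By level, the KO C1q-high state led for Ccl8 (5179 CPM, 4709 to 5684, in 68.6% of 35 cells) and Ccl12 (780 CPM, 604 to 990). The Mrc1 Retnla and Dnase1l3 states held more of the KO Ccl8 UMIs of the class, 32.7% and 31.1% against 17.9%. The 35 KO C1q-high cells were shallow, with a median of 2294 UMIs against 5503.5 for the class, and Reg3b was their first leading gene. Their Ccl24 level of 768 CPM rested on 1 cell with 69.7% of the UMIs. Among monocytes, Ccl6 was the highest member in both states. In Ly6c2 Vcan cells Ccl6 was at 798 CPM in KO and 868 in DKO, Ccl5 at 581 and 156 CPM and Ccl9 at 300 CPM in both. In Cd300e Ace cells Ccl6 was at 739 and 595 CPM while Ccl2, Ccl7, Ccl8, Ccl12 and Ccl24 had no UMI.

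Pairs of members were detected together in the same cells. Correlations are across cells on log-normalised UMIs (1516 KO and 319 DKO cells, all of 1 library each) and describe these cells only. In KO the pairs with the highest Pearson's r were Ccl3 with Ccl4 (0.57 in KO, 0.47 in DKO), Ccl6 with Ccl9 (0.49 and 0.51), Ccl2 with Ccl7 (0.47 and 0.60) and Ccl7 with Ccl12 (0.47 and 0.36). In DKO, Ccl2 with Ccl4 (0.31 in KO, 0.49 in DKO), which lie 1625.1 kb apart, came after Ccl2 with Ccl7 and Ccl6 with Ccl9 and before Ccl3 with Ccl4. The first 3 of the KO pairs lie 13.2, 9.2 and 8.3 kb apart. Over the 16 pairs within 200 kb the median r was 0.11 in KO and 0.17 in DKO, and over the 29 other pairs it was 0.02 and 0.06, with wide overlap (-0.23 to 0.57 against -0.09 to 0.38 in KO). Ccl5 and Ccl6, 57.4 kb apart, had the lowest r in both libraries (-0.23 and -0.19).

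**Figure D3:**
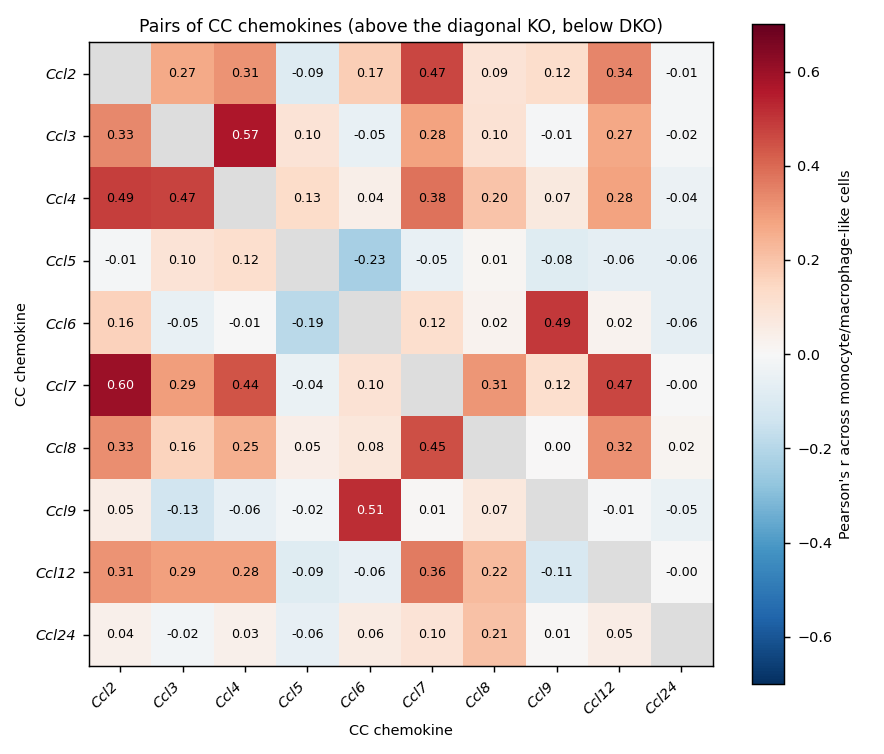
Pearson's r of each pair of CC chemokines (x and y axes) across monocyte/macrophage-like cells, above the diagonal in KO and below it in DKO. The highest values are Ccl3 with Ccl4 in KO (0.57) and Ccl2 with Ccl7 in DKO (0.60), and Ccl5 with Ccl6 is the bluest.

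When cells were thinned to that depth of 1500, 58.5% of 118 monocyte/macrophage-like KO cells with Ccl3 also had Ccl4, against 8.66% of those without Ccl3, and in DKO 48.0% of 25 against 13.1%. Of the 90 KO cells with Ccl2, 33.3% had Ccl7 against 2.83% of those without it, and of the 39 such DKO cells 46.2% against 6.13%. Of the 536 KO cells with Ccl6, 39.6% had Ccl9 against 14.3%, and in DKO 42.7% of 143 against 17.8%. The Ccl3 with Ccl4 pair was also seen within states, in 73.3% of 45 Ccl3 cells against 21% in the KO immediate early gene state and in 45.9% of 37 against 8.05% in the KO Arg1 Nos2 state. Ccl2 with Ccl7 held within the Mrc1 Retnla state, 51.4% of 37 against 16.2% in KO and 47.8% of 23 against 17.2% in DKO.

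The genes outside the family most like each member, by the smaller r of the 2 libraries, fell into 4 sets. Ccl2, Ccl3, Ccl4 and Ccl12 were most like immediate early genes, with Atf3 (0.39 in KO, 0.44 in DKO) for Ccl2 and Egr1 for Ccl3 (0.39 and 0.43), Ccl4 (0.38 and 0.45) and Ccl12 (0.33 and 0.38). The second partner of Ccl12 was Pf4, a platelet factor that resident macrophages also express (0.30 and 0.45). Ccl7 and Ccl8 were like genes of resident macrophages, Mrc1 (0.40 and 0.36) and Pf4 (0.36 and 0.46) for Ccl7 and Pf4 (0.54 and 0.34) and C1qa, a complement component (0.40 and 0.28), for Ccl8. Ccl6 and Ccl9 were like Ahnak, a large scaffold protein (0.35 and 0.48 for Ccl6, 0.34 and 0.36 for Ccl9), with S100a10 (0.37 and 0.45) leading for Ccl6. Ccl5 was most like AW112010 (0.41 and 0.37), followed by Bcl2a1d and Bcl2a1a, near-identical copies of an anti-apoptotic gene whose reads may be split. Ccl24 had no close partner, with Mmp19 at 0.12 and 0.25.

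To compare the genotypes, all UMIs of the monocyte/macrophage-like class were added up in each library. The DKO level was higher for Ccl2, from 76.3 CPM (70.6 to 82.4) in KO to 182 CPM (163 to 203) in DKO, and for Ccl7, from 78.5 CPM (72.7 to 84.6) to 229 CPM (207 to 252). On the log2 scale these were differences of 1.26 (1.06 to 1.45) and 1.54 (1.36 to 1.72). The immediate early gene sum of the class was also higher in DKO, at 3881 and 4794 CPM in the KO and DKO libraries, and its part in these differences was not tested. Ccl2 and Ccl7 were the 2 members of 10 that were 2-fold or more higher in DKO, a size that 6.09% of the 10776 genes tested reached, and 0 of 10 were 2-fold or more lower, against 4.85% of genes. The median log2 ratio was 0.39 over the 10 members and 0.10 over all genes tested. With TMM scaling the median of all genes was -0.02, a shift of the same size for every gene, and the share of higher among the genes past 2-fold was 42.1% in place of 55.6%.

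Ccl6 (541 and 886 CPM, log2 0.71, 0.63 to 0.80), Ccl4 (374 and 579 CPM, 0.63, 0.53 to 0.73), Ccl9 (235 and 318 CPM, 0.44, 0.30 to 0.57) and Ccl12 (50.6 and 64.1 CPM, 0.35, 0.03 to 0.64) were higher in DKO by less than 2-fold. Ccl8 (286 and 155 CPM, -0.88, -1.07 to -0.70), Ccl24 (47.5 and 28.7 CPM, -0.72, -1.18 to -0.31) and Ccl5 (-0.42, -0.48 to -0.35) were lower. Ccl3 was at 133 and 120 CPM, and the interval of its ratio included 0 (-0.15, -0.37 to 0.06). With every cell thinned to 1500 UMIs the Ccl12 ratio was -0.25. Without the cell of each library with most UMIs of the gene, the Ccl5 ratio was -1.14 and that of Ccl8 -1.16. Ccl5 was also found in fewer cells, 46.4% of KO (43.9% to 49.0%) and 24.8% of DKO (20.1% to 29.9%), or 34.9% and 19.7% when thinned to 1500 UMIs.

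**Figure D4:**
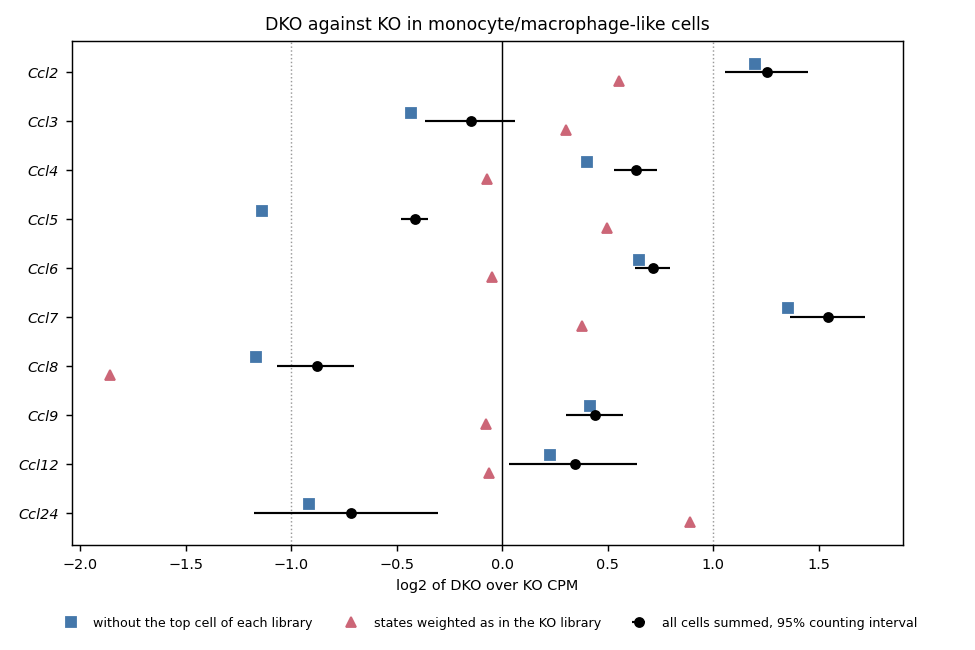
Log2 of DKO over KO CPM of each CC chemokine in monocyte/macrophage-like cells (x axis), as black points with 95% counting intervals, without the top cell of each library (blue squares) and with the states weighted as in KO (red triangles); dotted lines mark 2-fold. Ccl2 and Ccl7 lie past 2-fold at 1.26 and 1.54 but at 0.56 and 0.38 when states are weighted as in KO, while Ccl8 stays below 0 in all 3.

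The class differed in its makeup between the libraries, and the ratios moved with it. At the first clustering it consisted of a cluster led by Ly6c2 (595 KO and 123 DKO cells), 1 led by Apoe and C1qa (573 and 103), 1 led by Retnla and Mrc1 (164 and 91) and 1 led by Arg1 and Nos2 (184 and 2). Without the Arg1 and Nos2 cells, an alternative chosen after the data were seen, the log2 ratio of Ccl3 was 0.67 and that of Ccl5 -0.06, and without the immediate early gene state, chosen likewise, that of Ccl3 was -0.99 and that of Ccl12 -0.33. With the states weighted as in KO, and states of under 20 cells in a library left out, the log2 ratio was 0.56 for Ccl2, 0.38 for Ccl7, -0.05 for Ccl6, -0.07 for Ccl4, -0.08 for Ccl9, -0.06 for Ccl12, 0.50 for Ccl5, 0.89 for Ccl24 and -1.86 for Ccl8. For Ccl5 the Dnase1l3 state was the only one of the 4 larger states with a ratio above 0, and 1 cell held 49.7% of its DKO UMIs there. For Ccl24 the Arg1 Nos2 and C1q-high states, which were left out, held 44.8% and 16.0% of the KO UMIs of the class. The left-out Arg1 Nos2 state also held 33.5% of the KO Ccl5 UMIs and 51.1% of the KO Ccl3 UMIs of the class. In the Dnase1l3 state 6 DKO cells held 42 Ccl24 UMIs, 18 of them in 1 cell. With this weighting 0 of 10 members were 2-fold or more higher and 1, Ccl8, was 2-fold or more lower, when 4.7% and 5.35% of the 10776 genes were.

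Within states, Ccl6 was nearly level between the libraries where it was highest, at a log2 ratio of -0.05 (-0.17 to 0.06) in the Mrc1 Retnla state and 0.12 (-0.04 to 0.28) in the Ly6c2 Vcan state. Ccl2 had a ratio of 0.18 (-0.12 to 0.47) in the Mrc1 Retnla state and 0.70 (0.35 to 1.04) in the immediate early gene state. Ccl7 was higher in DKO Mrc1 Retnla cells (0.65, 0.42 to 0.88; 0.38 without the top cell of each library), while in the immediate early gene state its interval included 0 (0.14, -0.25 to 0.50). Ccl4 was higher in DKO Mrc1 Retnla cells (0.60, 0.43 to 0.76), with 33.3% of the DKO UMIs in 1 cell, and lower in the immediate early gene state (-0.28, -0.45 to -0.11) and in Dnase1l3 cells (-0.87, -1.58 to -0.28).

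Ccl8 and Ccl5 were lower in DKO within most states where they had UMIs. Ccl8 had a log2 ratio of -1.16 (-1.38 to -0.95) in the Mrc1 Retnla state, from 1104 to 494 CPM, of -3.09 (-4.02 to -2.38) in the immediate early gene state and of -2.41 (-3.14 to -1.82) in the Dnase1l3 state. Ccl5 had -1.67 (-1.94 to -1.41) in the Mrc1 Retnla state, from 998 to 313 CPM, -1.89 (-2.27 to -1.55) in the Ly6c2 Vcan state and -0.89 (-1.18 to -0.62) in the immediate early gene state. In Dnase1l3 cells Ccl5 was higher in DKO (0.85, 0.77 to 0.92), but without the top cell of each library the ratio was -0.06 and its interval included 0. The 3 Ccl8 ratios and the other 3 Ccl5 ratios stayed below 0 without those cells, at -1.29, -3.57 and -4.02 for Ccl8 and at -1.85, -2.06 and -3.47 for Ccl5.

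**Figure D5:**
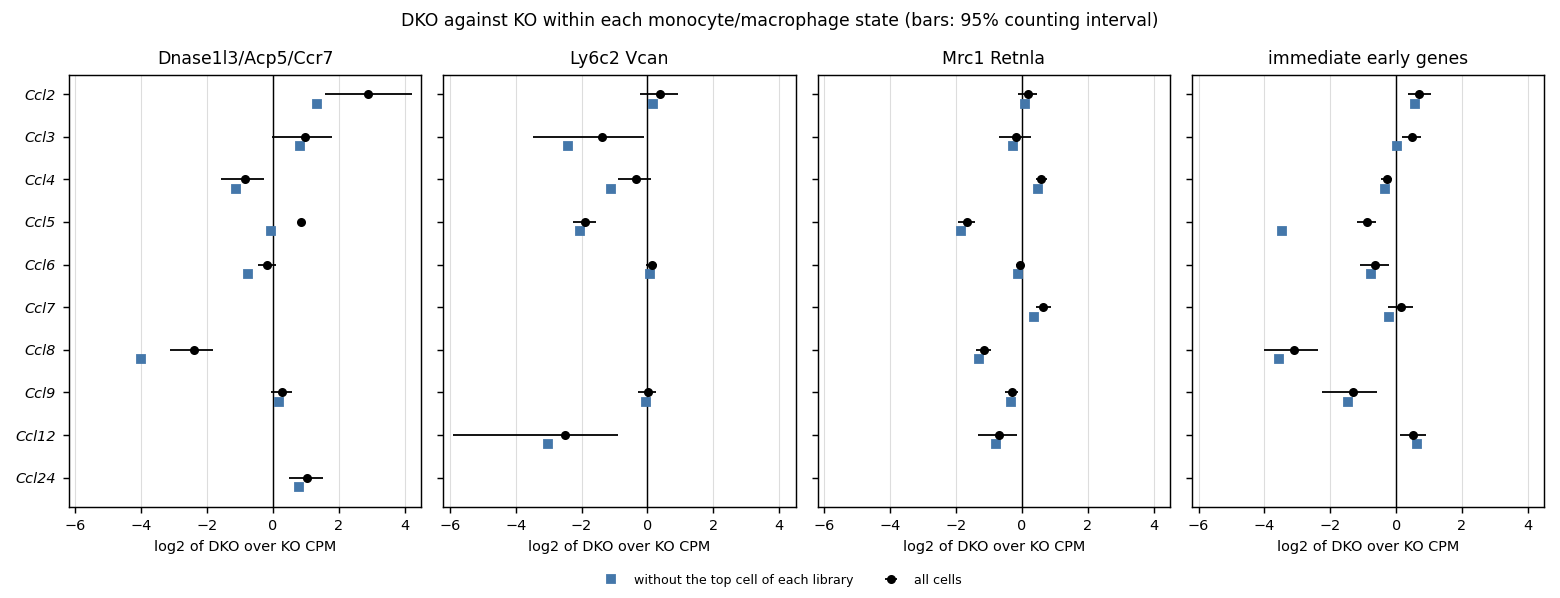
Log2 of DKO over KO CPM within the 4 monocyte/macrophage states with 45 or more cells in each library, for members with 20 or more UMIs, with bars for the 95% counting interval and blue squares for the value without the top cell of each library. Ccl8 lies below 0 in the 3 states where it is drawn and Ccl5 in 3 of 4, while Ccl6 lies near 0 in the Ly6c2 Vcan and Mrc1 Retnla panels.

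In neutrophil-like cells, which the sort was meant to leave out, the members split. Ccl3 had a KO level of 750 CPM (654 to 856) and a DKO level of 154 CPM (82.0 to 263) and Ccl4 of 4052 CPM (3825 to 4290) and 1908 CPM (1625 to 2226), log2 ratios of -2.23 and -1.08, and Ccl5 was lower as well (42 and 2 UMIs, -2.30, -5.69 to -0.66). Ccl6 was higher in DKO (1.13, 0.81 to 1.43). Without the top cell of each library Ccl3 was at -3.85, Ccl4 at -2.32 and Ccl6 at 0.92. Ccl9 had a ratio of 4.18, but without the DKO cell that held its 23 UMIs it was -0.49. Of the 5 members with at least 10 UMIs, 3 were 2-fold or more lower and 2 higher, when 15.2% and 7.5% of the 3015 genes tested were. Neither higher member, Ccl6 or Ccl9, stayed at 2-fold without the top cell of each library. With cells thinned to 1500 UMIs, Ccl6 was at 0.57. The immediate early gene sum of these cells, 7824 and 3911 CPM in the KO and DKO libraries, moved the same way as Ccl3 and Ccl4, and its part in their ratios was not tested. With a median of 1597.5 and 1550.5 UMIs per cell, these were the shallowest named cells.

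In dendritic cell-like cells Ccl3 had 87 UMIs in KO and 0 in DKO, at least 16.8-fold lower against a floor of 3 counts over the class, and Ccl4 had 309 and 3 (log2 -5.68, -8.19 to -4.34). However, 1 KO cell held 73.6% of those Ccl3 and 89.6% of those Ccl4 UMIs, and another held 30 of the 32 KO Ccl7 UMIs and carried 11 of 15 monocyte/macrophage markers. Ccl5 was higher in DKO (0.62, 0.50 to 0.74; 1.57 without the top cells) and Ccl6 lower (84 and 23 UMIs, -1.06, -1.82 to -0.40), and the interval for Ccl9 included 0 (0.36, -0.39 to 1.09). Where each cell was put in the class whose markers it carried most of, with no clusters (57 KO and 28 DKO cells), the ratio was 0.18 for Ccl6, 0.81 for Ccl7, -1.02 for Ccl4 and -0.78 for Ccl3. Of the 6 members tested 4 were 2-fold or more lower and 0 higher, against 8.52% and 6.25% of 7056 genes. Per cell, Ccl5 was found in 29.2% of KO (20.8% to 38.9%) and 32.7% of DKO (20.3% to 47.1%) cells, a difference within the counting error.

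In cytotoxic/innate lymphocyte-like cells Ccl5 was lower in DKO (-0.75, -0.83 to -0.67) though the share of cells with it was the same to within 1 percentage point, 89.4% (83.2% to 94.0%) and 89.6% (79.7% to 95.7%). Ccl4 was lower as well, with 146 UMIs in 16 KO cells and 6 in 1 DKO cell (229 and 21.8 CPM, -3.28, -4.86 to -2.24). By markers alone, which left 33 KO and 11 DKO cells, both ratios turned, to 0.16 for Ccl5 and 0.71 for Ccl4. Of the 3 members tested 1 was 2-fold or more lower and 0 higher, when 10.3% and 5.36% of 6608 genes were. In T cell-like cells Ccl5 was at 574 and 711 CPM and the interval of its ratio included 0 (0.31, -0.01 to 0.62). Under the stricter cell filter the ratio was -0.82. There the class also held a cluster of 20 KO and 6 DKO cells (median 13318 UMIs) led by Hist1h2ae and Mcpt2. The part of that cluster in the turn was not tested.

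Receptors for these ligands were read in the same cells. Of the 14 receptor genes listed, 6 had at least 10 UMIs in monocyte/macrophage-like cells, and 0 of 6 were 2-fold or more apart in either direction (median log2 -0.48, against 0.10 over all genes tested, of which 6.09% were higher and 4.85% lower by that much). Ccr2, the receptor for Ccl2, Ccl7 and Ccl12 on monocytes, was at 205 CPM in KO and 267 CPM in DKO (0.38, 0.23 to 0.53). Ccr1, a receptor of Ccl3, Ccl5, Ccl6 and Ccl9, was at 255 and 198 CPM (-0.36, -0.53 to -0.20). Ccrl2, an atypical receptor that binds chemerin and does not signal, was at 857 and 436 CPM (-0.98, -1.09 to -0.87). Of the 11 other CC ligands listed 4 had at least 10 UMIs, and 1, Ccl17, a CCR4 ligand of dendritic cells, was 2-fold or more lower in DKO (29.0 and 9.55 CPM, -1.56, -2.40 to -0.89), while 0 of the 4 were higher, beside the same 4.85% and 6.09% of all genes.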

How the data were processed

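The authors made 10x Genomics 3′ libraries (v3.1) and deposited counts of UMIs per gene and barcode from Cell Ranger 6.0.1 on mm10, 1 matrix per genotype. The study's cell filter was kept (300 to 5000 genes, up to 10% mitochondrial UMIs), as were its settings for Seurat 4.3.0, here run in Seurat 5.3.0 under R 4.3.3 on both libraries (2000 variable genes, 30 components, 20 neighbours, resolution 0.3), without Ccl and Cxcl genes and, for the macrophage states, without Cers2. Clusters were named from marker lists, with a scoring rule written after the clusters were seen. The 10 members and all lists were chosen with earlier results of these data known. Doublets were not removed: Scrublet in scanpy 1.11.5 called 6 KO and 1 DKO barcodes, too few to have worked, so the highest 5% of scores were removed as an alternative.

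UMIs were summed per library and class and scaled to CPM. A log2 ratio is DKO over KO with 0.5 counts added, for genes with 10 or more UMIs in the class, and with 1 library per genotype none was tested. Intervals are 95% Poisson, conditional binomial or Clopper-Pearson intervals (SciPy 1.17.1 in Python 3.11.15) and a floor is 3 counts. Shares were repeated on cells thinned to 1500 UMIs, which left out 244 KO and 71 DKO cells. The script was checked on simulated counts. Genes named were the 10 members, the listed receptors and ligands, and the 3 genes most like each member among those with at least 200 UMIs in each library. In other classes a ratio was named where the member had at least 20 UMIs. Alternatives were a stricter cell filter, resolution 0.8, gating by markers per cell, chemokines kept for clustering, TMM scaling (edgeR 4.0.16), 1 count added, leaving out the top cell, weighting of states, thinning, and genes without a minimum. Figures were drawn with matplotlib 3.10.9.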

Additional observations from a re-analysis of the deposited data

Results flagged for a closer look

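4 members had log2 DKO over KO ratios of opposite sign in different cell classes, each with a counting interval that left out 0. The differences between classes were not tested, since each genotype had 1 library. Ccl4 was at 0.63 in monocyte/macrophage-like cells, -1.08 in neutrophil-like cells, -5.68 in dendritic cell-like cells and -3.28 in cytotoxic/innate lymphocyte-like cells. Ccl5 was at -0.42 in monocyte/macrophage-like, -2.30 in neutrophil-like, -0.75 in cytotoxic/innate lymphocyte-like and -2.11 in epithelial cell-like cells, and at 0.62 in dendritic cell-like cells. Ccl6 was at 0.71 in monocyte/macrophage-like and 1.13 in neutrophil-like cells, and at -1.06 in dendritic cell-like and -1.54 in epithelial cell-like cells. Ccl7 was at 1.54 in monocyte/macrophage-like and -3.65 in dendritic cell-like cells. Of the dendritic cell-like KO UMIs, 1 cell with 11 of 15 monocyte/macrophage markers held 30 of 32 for Ccl7. Another cell held 277 of 309 for Ccl4. By markers, the ratio turned to 0.81 for Ccl7 of dendritic cell-like cells and to 0.71 for Ccl4 of cytotoxic/innate lymphocyte-like cells. At resolution 0.8, Ccl6 of dendritic cell-like cells turned to 0.67. The epithelial cell-like cluster, of 35 KO and 8 DKO cells, was mixed. Its summed epithelial markers were at 2267 CPM in KO and 804 CPM in DKO, its monocyte/macrophage markers at 2648 and 2106 CPM and its plasma cell markers at 3747 and 2106 CPM. Its T cell markers were at 2048 and 833 CPM and its cytotoxic/innate lymphocyte markers at 2193 and 351 CPM. In DKO, 1 cell held 12 of its 20 Ccl5 UMIs and had 0 of 8 epithelial and 9 of 12 T cell markers. In KO, 1 of its cells held 43.5% of its Ccl6 UMIs and had 0 of 8 epithelial and 9 of 15 monocyte/macrophage markers. The cell types behind its Ccl5 and Ccl6 ratios cannot be told apart.

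Members were also found in barcodes that no comparison used. The cluster without a name (108 KO and 24 DKO cells, median 739.5 and 768 UMIs) had a summed level of the 10 members of 1368 and 913 CPM in the KO and DKO libraries, above floors of 32.8 and 124 CPM. Its immediate early gene sum was 16350 and 16555 CPM. The barcodes outside the cell filter, 141 in KO and 12 in DKO, had 564 and 371 CPM, above floors of 21.7 and 222 CPM.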

How the results depend on the processing

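In monocyte/macrophage-like cells, Ccl2, Ccl7 and Ccl8 kept their direction in 13 of 13 alternatives. The log2 ratios that moved are given by setting. The cause of these moves was not tested beyond what each setting leaves out. The stricter cell filter, under which the Retnla and Mrc1 cluster got no name and left the class, gave Ccl2 1.76, Ccl4 -0.012, Ccl5 -0.077, Ccl6 0.22, Ccl7 0.84, Ccl8 -2.42 and Ccl9 0.10, with 1 member 2-fold or more higher and 1 lower (5.69% and 6.47% of all genes). Resolution 0.8 gave Ccl5 -0.31, Ccl6 0.31 and Ccl9 0.26. Gating by markers gave Ccl4 0.49, Ccl6 0.57 and Ccl7 1.33, with 1 member lower (4.72% of genes). TMM scaling gave Ccl4 0.51, Ccl5 -0.54 and Ccl6 0.59. Without the top cell the values were Ccl3 -0.43, Ccl4 0.40, Ccl5 -1.14, Ccl7 1.36 and Ccl8 -1.16. States were also weighted as in KO, again without the Arg1 Nos2 and C1q-high states. This gave Ccl2 0.56, Ccl3 0.30, Ccl4 -0.074, Ccl5 0.50, Ccl6 -0.047, Ccl7 0.38, Ccl8 -1.86, Ccl9 -0.077, Ccl12 -0.064 and Ccl24 0.89. With that weighting 0 members were 2-fold or more higher and 1 lower (4.7% and 5.35% of genes). Thinning gave Ccl2 1.01, Ccl3 -0.44, Ccl4 0.40, Ccl5 -0.78, Ccl7 1.29, Ccl12 -0.25 and Ccl24 -0.29. After the data were seen, 3 alternatives for this class were added. One used the stricter cell filter but kept the cluster without a name in the class (1534 KO and 323 DKO cells). Ccl2, Ccl7 and Ccl8 kept their direction there too, and 5.84% and 5.83% of all genes were 2-fold or more higher and lower. Without the Arg1 and Nos2 cells the ratios were Ccl3 0.67, Ccl5 -0.059, Ccl6 0.54, Ccl7 1.36, Ccl8 -1.09, Ccl9 0.28 and Ccl24 -0.077, with 1 member lower (3.71% of genes). Without the immediate early gene state they were Ccl3 -0.99, Ccl4 1.0, Ccl5 -0.35, Ccl6 0.82, Ccl7 1.98, Ccl8 -0.61 and Ccl12 -0.33.

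In other classes the direction turned for Ccl6 of dendritic cell-like cells at resolution 0.8 (0.67) and by markers (0.18), and for Ccl9 of neutrophil-like cells by markers (-1.57), without the highest doublet scores (-0.56) and without the top cell (-0.49). By markers it also turned for dendritic Ccl7 (0.81), cytotoxic Ccl4 (0.71) and Ccl5 (0.16), and epithelial Ccl5 (2.69) and Ccl8 (1.95). Ratios whose interval included 0 changed sign for T cell-like Ccl5 under the stricter filter (-0.82), by markers (-0.32) and without the top cell (-0.084), and for epithelial Ccl9 by markers (0.57). Without a minimum of UMIs, genes 2-fold or more higher and lower were 1810 and 809 in monocyte/macrophage-like, 1513 and 1336 in neutrophil-like, 1657 and 1558 in dendritic cell-like and 1568 and 1869 in cytotoxic/innate lymphocyte-like cells. When thinned, the lower genes were 281 in neutrophil-like and 367 in cytotoxic/innate lymphocyte-like cells, and dendritic cell-like cells had 164 higher and 293 lower. Few DKO cells set the limits: levels of members in the smaller classes rested on single cells, and no interval covers the spread between mice.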

Other observations

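Receptors of CC chemokines were also read in dendritic cell-like, T cell-like and neutrophil-like cells, as values with no test. In dendritic cell-like cells Ccr7, the receptor by which dendritic cells migrate to lymph nodes, was at 1013 CPM in the KO library and 1788 CPM in the DKO library, a log2 ratio of 0.82 (0.69 to 0.95). The dendritic cell ligands Ccl17 (257 and 222 CPM) and Ccl22 (176 and 163 CPM) had ratios whose intervals included 0. In T cell-like cells Ccr2 was at 292 and 110 CPM (-1.37, -2.22 to -0.69) and Ccr7 at 187 and 349 CPM (0.91, 0.41 to 1.39). Neutrophil-like cells carried Ccrl2 at 4155 and 2655 CPM (-0.64, -0.86 to -0.44), and Ccr1 at 835 and 664 CPM, where the interval of the ratio included 0.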
